A study of Mus musculus with 15 samples.

Results

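The interleukin-6 (IL-6) family of cytokines and the receptors through which it signals were followed in the mouse lung after bleomycin injury. The members were 10 genes of the deposited table, chosen by symbol, of 33340 genes in all: the cytokines Il6, Il11, Lif and Osm, the ligand-specific receptors Il6ra, Il11ra1, Lifr and Osmr, the shared receptor Il6st, and the feedback inhibitor Socs3. Polyadenylated RNA of whole lungs from adult male C57BL/6 mice was sequenced in 15 libraries. Bleomycin breaks DNA and is used to bring on lung scarring. It was placed in the trachea at 5 U/kg, and lungs were taken at day 7 (n = 4), day 14 (n = 4) and day 21 (n = 3), with day 0 controls (n = 4). Of the day 0 libraries, 3 carried the treatment label none, while replicate 4 was titled a control but carried a bleomycin label. The title was followed. Values without this library are given for the named genes whose call changed without it. They are also given for the total counts of members and of other pathway genes changed against day 0. The study calls its lung replicates biological, while the labels give no animal for each library.

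These cytokines all signal through gp130, the protein encoded by Il6st. IL-6 and IL-11 first bind their own receptors, IL-6Rα (Il6ra) and IL-11Rα (Il11ra1), which then recruit gp130. LIF joins gp130 to LIFR, and oncostatin M (Osm) joins gp130 to OSMR. The bound receptors activate JAK kinases and the transcription factor STAT3, and STAT3 switches on Socs3, whose product binds gp130 and shuts the signal down. In the lung, IL-6 and IL-11 are best known from inflammation and from the activation of fibroblasts, LIF from the protection of injured epithelium, and oncostatin M as a product of neutrophils and macrophages.

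Reads were counted per gene, and levels are given as CPM, the counts of a gene relative to all counts of its library, on library sizes scaled by TMM, a method that equalizes the bulk of the genes between libraries. Total counts lay between 15652008 and 18020661 per library. Lung markers were present in every library, since the 4 genes Sftpc, Sftpb, Ager and Scgb1a1 summed to at least 8900 CPM in each. None of the 4 was at 0 throughout a day group. In whole tissue, fewer cells of a type and less RNA per cell cannot be told apart. Each later day was tested against day 0 by quasi-likelihood in edgeR, and p-values were adjusted after Benjamini and Hochberg over the 17457 genes tested. A gene was called changed when its adjusted p was under 0.05 and its fold change exceeded 1.5. The 3 comparisons share the day 0 libraries.

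The stretches before the start of 4 members that were higher at day 14 are shown because they hold the letters of a motif for a factor that acts on cytokine genes or below gp130. RefSeq promoter windows (GRCm38.p6) were found for 9 of the 10 members (not for Osm), with 12 windows in all. The 250 bases before each start were searched on both strands for TTCNNNGAA (STAT), TGANTCA (AP-1) and GGGA and TTTCC with any base between them (NF-kappaB). Each line below reads 5′ to 3′ toward the start of the gene on its own strand, and capitals mark the matches. The windows are chr5:30012864-30013113 on the plus strand for Il6, chr7:4778142-4778391 on the minus strand for the first of 2 starts of Il11, chr11:4257318-4257567 on the plus strand for Lif and chr11:117969367-117969616 on the minus strand for Socs3. In the GENCODE annotation the Il11 window lies in an intron of the longer gene model, and the Socs3 window overlaps the first exon of a non-coding Socs3 transcript.
Il6: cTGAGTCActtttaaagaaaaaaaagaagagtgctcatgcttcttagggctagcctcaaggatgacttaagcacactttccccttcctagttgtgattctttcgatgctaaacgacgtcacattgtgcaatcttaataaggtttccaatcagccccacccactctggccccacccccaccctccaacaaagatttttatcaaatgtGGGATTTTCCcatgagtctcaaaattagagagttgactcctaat
Il11: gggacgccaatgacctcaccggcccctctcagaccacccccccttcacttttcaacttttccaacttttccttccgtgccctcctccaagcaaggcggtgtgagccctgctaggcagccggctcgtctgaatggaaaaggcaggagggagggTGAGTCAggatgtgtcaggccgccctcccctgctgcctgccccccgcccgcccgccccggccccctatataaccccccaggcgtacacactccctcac
Lif: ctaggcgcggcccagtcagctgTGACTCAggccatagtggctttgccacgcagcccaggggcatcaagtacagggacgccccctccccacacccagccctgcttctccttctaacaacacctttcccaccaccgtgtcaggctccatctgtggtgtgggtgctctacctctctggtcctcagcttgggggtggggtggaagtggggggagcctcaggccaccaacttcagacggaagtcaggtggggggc
Socs3: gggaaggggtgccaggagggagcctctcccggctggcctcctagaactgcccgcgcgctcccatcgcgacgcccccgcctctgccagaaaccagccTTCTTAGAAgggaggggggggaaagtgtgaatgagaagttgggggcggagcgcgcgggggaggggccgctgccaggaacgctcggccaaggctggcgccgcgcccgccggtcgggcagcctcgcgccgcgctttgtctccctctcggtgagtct

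The Il6 window held an AP-1 match 249 to 243 bases before the start and an NF-kappaB match 44 to 35 bases before it. The Il11 window held an AP-1 match at 98 to 92 bases, the Lif window an AP-1 match at 228 to 222 bases, and the Socs3 window a STAT match, TTCTTAGAA, at 154 to 146 bases. Of all 32851 windows of this length, 6.75% held the AP-1 letters, 7.02% the STAT letters and 0.356% the NF-kappaB letters. None of these matches is shown to be a bound site by these data. The other 8 windows of the members held none of the 3 letter patterns.

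After bleomycin, mRNA for 3 of the 4 cytokines was higher, and mRNA for their receptors split. Lif had the largest rise of the cytokines, though at day 14 the rise of Il6 was larger without day 0 replicate 4 (log2 4.20 against 3.56 for Lif), and at day 7 it was larger within the libraries with a mitochondrial share of counts under 2.5% (3.45 against 3.06) and with that share as a covariate (3.03 against 2.97). The set under 2.5% held day 0 replicates 1 and 2 and the 4 day 7 libraries, so it also lacked day 0 replicate 4. The share was 2.28%, 2.31%, 4.22% and 4.04% in the day 0 libraries and 2.03% to 2.15% at day 7. Within day 7 the covariate thus hardly varied, and these fits are not independent of the choice of day 0 libraries. Osmr and the inhibitor Socs3 rose, Il6ra and Lifr fell, and the shared receptor Il6st did not pass the thresholds at any day. At day 7, 5 of the 10 members had changed, 3 higher and 2 lower, where 16.1% of all genes tested had changed, 8.78% higher and 7.36% lower. At day 14, 7 had changed, 5 higher and 2 lower, against 23.1% of all genes, 12.0% higher and 11.2% lower. At day 21, 8 had changed, 5 higher and 3 lower, against 22.5% of all genes, 12.4% higher and 10.1% lower. The median log2 fold change of all genes tested was 0.01, 0.02 and 0.02 at the 3 days. Leaving out day 0 replicate 4 gave 4 members higher and 1 lower at day 7. It gave 5 higher and 2 lower at days 14 and 21. Of the 17344 genes tested without that library, 2101, 3615 and 3595 had changed at the 3 days. The members were chosen with earlier results of these data known, so their shares are not independent of the data. All 10 members passed the filter on low counts. Il6 did so through the later days, since only 1 of 4 day 0 libraries reached the filter's level, so its place among the genes tested was not independent of its later levels.

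**Figure D1:**
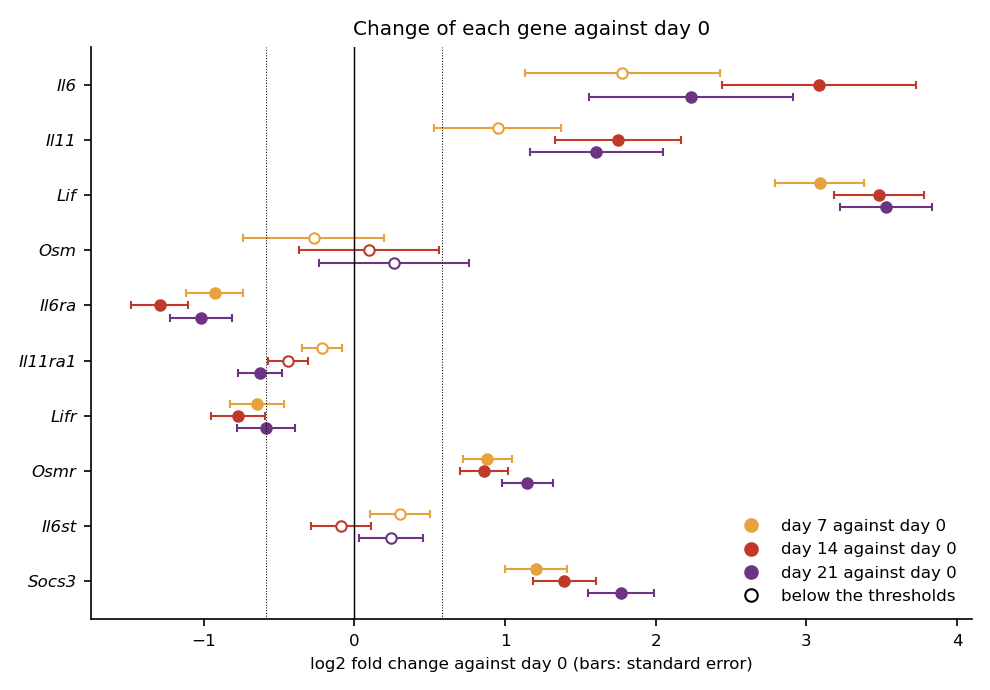
Log2 fold change of each of the 10 genes at day 7, 14 and 21 against day 0 (horizontal axis), with bars for the standard error and filled points for changes past both thresholds; dotted lines mark a fold change of 1.5. Lif lies farthest to the right at all 3 days, at 3.09, 3.48 and 3.53, and Il6ra farthest to the left, at -0.93, -1.29 and -1.02.

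Lif (ENSMUSG00000034394, chromosome 11, 4257557 to 4272514, plus strand) encodes leukemia inhibitory factor, the ligand of LIFR. Its level was 3.43, 5.44, 3.43 and 5.24 CPM in the day 0 libraries, 45.4, 55.3, 31.4 and 17.8 CPM at day 7, 51.5, 44.6, 53.9 and 46.8 CPM at day 14, and 40.1, 50.7 and 61.7 CPM at day 21. The lowest library after bleomycin, day 7 replicate 4, was still above every day 0 library. The mean was 4.39 ± 1.11 CPM for day 0 (SD, n = 4) and 37.5 ± 16.3 CPM for day 7 (n = 4), an 8.50-fold rise (log2 fold change 3.09, SE 0.29, edgeR adjusted p 1.74e-05). The rise was 11.2-fold at day 14 (log2 3.48, SE 0.30, adjusted p 1.96e-06) and 11.5-fold at day 21 (log2 3.53, SE 0.31, adjusted p 3.13e-06). Days 14 and 7 differed by 0.39 on the log2 scale (SE 0.26, adjusted p 0.362), which did not pass.

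Day 7 replicate 4, the library with the least Lif after bleomycin, also stood apart in 2 marker lists. Its summed level of 6 cardiac muscle genes was 588 CPM, where the other libraries of that day had 26.0 to 54.4 CPM, and that of 4 adipose genes was 127 CPM against 4.64 to 22.7 CPM. Day 21 replicate 1, the library with the least Lif of its day, had a cardiac muscle sum of 702 CPM. The others of that day had 15.4 and 22.0 CPM. The part of these lists in the Lif values was not tested. No alternative fit ended a Lif call, and leaving out 1 library at a time gave a log2 fold change of 2.84 to 3.32 at day 7.

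Il6 (ENSMUSG00000025746, chromosome 5, 30013114 to 30019981, plus strand) encodes the cytokine that gives the family its name, and its mRNA was scarce. The day 0 libraries held 4, 1, 6 and 24 reads, or 0.259, 0.0605, 0.381 and 1.34 CPM. The level was 1.59, 3.57, 1.21 and 0.832 CPM at day 7, 2.13, 6.00, 6.75 and 2.96 CPM at day 14, and 3.09, 2.17 and 2.18 CPM at day 21. Day 0 replicate 4 overlapped the day 7 libraries, 2 of which lay below it, whereas all libraries of days 14 and 21 were above all of day 0. At day 7 the log2 fold change was 1.78 (SE 0.65), which did not pass (edgeR adjusted p 0.0553). It passed by DESeq2 (1.78, adjusted p 0.0195) and in 7 of 22 alternatives in all, including the mitochondrial share of counts as a covariate (3.03, edgeR adjusted p 0.0171). Il6 was 8.46-fold higher at day 14 (log2 3.08, SE 0.64, adjusted p 0.00198) and 4.71-fold higher at day 21 (log2 2.23, SE 0.67, adjusted p 0.0208).

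The size of the Il6 difference rested on day 0 replicate 4. Without it the log2 fold change was 2.90 at day 7, now past the thresholds (edgeR adjusted p 0.0108), 4.20 at day 14 and 3.35 at day 21. The day 7 difference also passed without day 7 replicate 4 (2.01, adjusted p 0.0420). The day 21 call was lost without day 0 replicate 1 (1.98, adjusted p 0.0614), replicate 2 (1.83, adjusted p 0.0504) or replicate 3 (2.08, adjusted p 0.0553), and without day 21 replicate 1 (2.01, adjusted p 0.0664). The same day 0 library had the most immediate early mRNA, genes that respond within minutes to handling and stress. The 8 genes of that list summed to 3590 CPM there, to 776 to 1460 CPM in the other day 0 libraries, and to 744 to 1080 CPM in all later libraries. The part of these genes in the Il6 value was not tested.

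Il11 (ENSMUSG00000004371, chromosome 7, 4772373 to 4782859, minus strand) encodes interleukin-11, a cytokine made by stromal cells that acts on fibroblasts. Its level was 0.841, 0.786, 0.825 and 1.62 CPM at day 0, 1.93, 3.01, 1.98 and 1.01 CPM at day 7, 3.43, 6.25, 2.00 and 2.17 CPM at day 14, and 3.59, 2.28 and 3.53 CPM at day 21. Within day 7, replicate 4 was inside the day 0 range and the other libraries were above it, while from day 14 on the groups did not overlap. The day 7 difference did not pass (log2 fold change 0.95, SE 0.42, edgeR adjusted p 0.109). Without day 0 replicate 4, the highest of its group, it was 1.25 (adjusted p 0.0737), and with day 14 replicate 2 left out as well it passed (1.25, adjusted p 0.0395). Il11 was 3.36-fold higher at day 14 (log2 1.75, SE 0.42, adjusted p 0.00497) and 3.04-fold higher at day 21 (log2 1.61, SE 0.44, adjusted p 0.0128). The highest day 14 value came from replicate 2.

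Osm (ENSMUSG00000058755, chromosome 11, 4236420 to 4241026, plus strand) lies next to Lif, with 16.5 kb between the gene models, but no change in its level passed the thresholds. Osm was at 3.37, 1.69, 4.51 and 10.99 CPM at day 0, 5.78, 3.07, 2.80 and 5.47 CPM at day 7, 7.09, 5.55, 6.41 and 3.02 CPM at day 14, and 5.75, 3.82 and 9.0 CPM at day 21. Day 0 replicate 4 had the highest value of all libraries and replicate 2 the lowest, so day 0 spanned the whole range of the later days. The log2 fold change was -0.27 (SE 0.47, edgeR adjusted p 0.707), 0.10 (SE 0.46, adjusted p 0.894) and 0.26 (SE 0.50, adjusted p 0.730) at days 7, 14 and 21. The sign changed with single libraries, and at day 7 it was 0.40 without day 0 replicate 4 (adjusted p 0.532).

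Markers of neutrophils, a known source of oncostatin M, had lower summed levels in most libraries after bleomycin. The 7 genes of the list summed to 405 to 922 CPM at day 0, 98.0 to 277 CPM at day 7, 138 to 469 CPM at day 14 and 91.2 to 181 CPM at day 21, with some overlap at day 14. The 7 macrophage genes summed to 934 to 1230, 901 to 1720, 1430 to 4000 and 1730 to 3440 CPM at the 4 days. The 6 fibroblast genes summed to 1310 to 1990 CPM at day 0 and to 3590 to 13100 CPM over all later libraries, with 6, 4 and 6 of the 6 genes at a higher median than day 0 on days 7, 14 and 21. The 4 smooth muscle genes summed to 241 to 317 CPM at day 0 and to 498 to 561, 400 to 986 and 342 to 894 CPM on the later days, without overlap. The 3 mesothelial genes summed to 150 to 255, 93 to 390, 359 to 881 and 370 to 613 CPM, clear of day 0 from day 14 on. A higher median than at day 0 was seen for 5, 6 and 5 of the 7 macrophage genes on days 7, 14 and 21. It was seen for 3, 3 and 4 of the 4 smooth muscle genes, and for 2 of the 3 mesothelial genes on each day. Among the 7 neutrophil genes it was seen for 0 on each day. No gene of the 5 lists was at 0 throughout a group. The part of these cell types in the cytokine and Osmr levels was not tested.

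**Figure D2:**
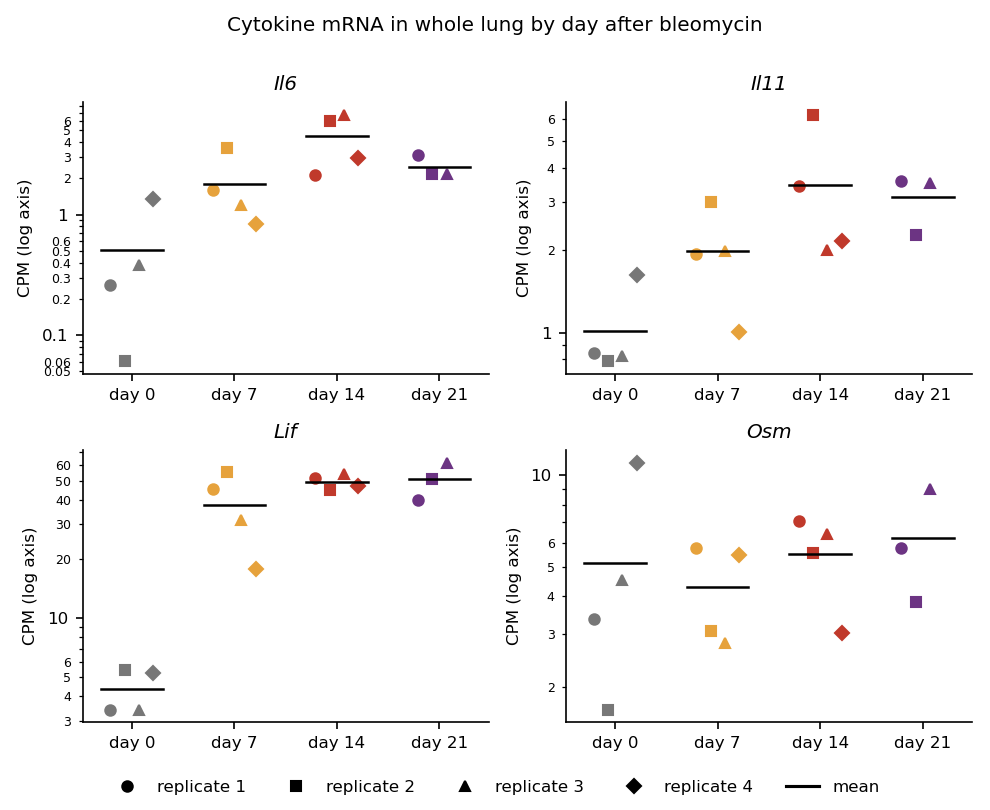
CPM of the 4 cytokine genes in each library (vertical axis, log scale, a different range in each panel) by day, with 1 marker shape per replicate number and a line at the group mean. Lif separates from day 0 at every later day, Il6 and Il11 from day 14, and the Osm groups overlap throughout.

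Among the cytokines, the one with the most mRNA per length also changed. Counts per kilobase of exon were summed over the 4 cytokines in each library, and Osm held 52.4% ± 15.1 of the sum at day 0 (SD, n = 4) and Lif 30.1% ± 15.5. Osm held the largest share in 3 of 4 day 0 libraries. Lif held the largest share in all 11 later libraries, at 68.8% ± 8.72 on day 7 (n = 4), 66.1% ± 7.64 on day 14 (n = 4) and 69.0% ± 6.80 on day 21 (n = 3). These shares, like those of the receptors below, were computed after the levels had been seen and are given without a test.

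Il6ra (ENSMUSG00000027947, chromosome 3, 89864059 to 89913196, minus strand) encodes the receptor that binds IL-6, in the membrane or in soluble form. Its level was 138, 154, 91.0 and 103 CPM at day 0, 58.7, 63.0, 54.0 and 79.8 CPM at day 7, 67.2, 46.8, 40.2 and 44.3 CPM at day 14, and 66.8, 60 and 53.1 CPM at day 21. Every later library was below every day 0 library. Il6ra fell 1.90-fold by day 7 (log2 fold change -0.93, SE 0.19, edgeR adjusted p 0.00286), 2.45-fold by day 14 (log2 -1.29, SE 0.19, adjusted p 0.000131) and 2.02-fold by day 21 (log2 -1.02, SE 0.21, adjusted p 0.00181). A gene model on the opposite strand shares 2.80% of its exon bases, and the strand setting of the counting was not stated.

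Lifr (ENSMUSG00000054263, chromosome 15, 7090614 to 7197489, plus strand) encodes the receptor that LIF binds. Its level was 123, 123, 141 and 178 CPM at day 0, 92.5, 82.2, 104 and 82.3 CPM at day 7, 82.7, 51.1, 94.2 and 102 CPM at day 14, and 88.2, 101 and 92.3 CPM at day 21. All later libraries lay below all of day 0, with the lowest in day 14 replicate 2. Lifr fell 1.56-fold by day 7 (log2 fold change -0.64, SE 0.18, edgeR adjusted p 0.0171), 1.71-fold by day 14 (log2 -0.77, SE 0.18, adjusted p 0.00408) and 1.5-fold by day 21 (log2 -0.59, SE 0.20, adjusted p 0.0330). The falls at days 7 and 21 were close to the threshold. Without day 0 replicate 4 they were -0.53 (adjusted p 0.0581) and -0.48 (adjusted p 0.0846), and the day 14 fall was -0.66 (adjusted p 0.0151). With day 14 replicate 2 left out as well, the day 14 fall was -0.49, under the fold threshold. The day 7 call was lost too with the mitochondrial share of counts as a covariate (-0.52, adjusted p 0.143). The day 7 call was also lost without day 7 replicate 2 (adjusted p 0.0522), and the day 21 call without day 21 replicate 1 (adjusted p 0.0790) or replicate 3 (adjusted p 0.0659).

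Il11ra1 (ENSMUSG00000073889, chromosome 4, 41699989 to 41769474, plus strand) encodes the receptor that binds IL-11. Its level was 64.6, 55.8, 68.9 and 68.3 CPM at day 0, 66.6, 47.5, 58.5 and 49.4 CPM at day 7, 38.4, 45.4, 54.3 and 51.7 CPM at day 14, and 42.1, 37.2 and 46.1 CPM at day 21. Day 7 overlapped day 0, and the libraries of days 14 and 21 lay below it. The log2 fold change was -0.21 at day 7 (SE 0.13, edgeR adjusted p 0.248) and -0.44 at day 14 (SE 0.13, adjusted p 0.0183), a 1.36-fold difference that was under the fold threshold. By day 21 it had fallen 1.54-fold (log2 -0.62, SE 0.14, adjusted p 0.00445). Of its 4790 transcript windows of 75 bases, 35.9% also occur in transcripts of the paralogs Il11ra2 or Gm13305, and reads with several alignments had been left out, so its level is uncertain. The other 9 members shared no window with another gene.

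The summed levels of several cell type marker lists were also lower after bleomycin. The 4 alveolar type 2 genes summed to 25100 to 35200 CPM at day 0, 15800 to 24300 CPM at day 7, 6420 to 19000 CPM at day 14 and 4090 to 8600 CPM at day 21, without overlap with day 0, although 1 of the genes had a higher median at day 7. The 5 endothelial genes summed to 2440 to 2890, 1730 to 2290, 1320 to 2260 and 1660 to 2030 CPM, also without overlap. The 5 T and B cell genes summed to 68 to 119, 29.7 to 104, 15.4 to 56.6 and 19.8 to 32.5 CPM, and only day 7, on which 2 of the 5 genes had a higher median than at day 0, overlapped day 0. The 4 lung genes Sftpc, Sftpb, Ager and Scgb1a1 summed to 48300 to 63500, 24100 to 33200, 12800 to 25300 and 8900 to 13100 CPM at the 4 days. Of these genes 2, 1 and 0 had a higher median than day 0 at days 7, 14 and 21. No gene of these lists was at 0 throughout a group, and their part in the receptor levels was not tested.

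Osmr (ENSMUSG00000022146, chromosome 15, 6813577 to 6874969, minus strand) encodes the oncostatin M receptor and lies 216 kb from Lifr on the opposite strand. The neighbours moved in opposite directions. Osmr was at 85.2, 104, 66.3 and 85.0 CPM at day 0, 144, 182, 128 and 175 CPM at day 7, 167, 120, 158 and 174 CPM at day 14, and 179, 220 and 167 CPM at day 21. All later libraries lay above all of day 0. Osmr rose 1.85-fold by day 7 (log2 fold change 0.88, SE 0.16, edgeR adjusted p 0.00136), 1.82-fold by day 14 (log2 0.86, SE 0.16, adjusted p 0.000842) and 2.22-fold by day 21 (log2 1.15, SE 0.17, adjusted p 0.000177).

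Il6st (ENSMUSG00000021756, chromosome 13, 112464070 to 112510086, plus strand) encodes gp130 itself. Its level was 531, 557, 312 and 495 CPM at day 0, 536, 685, 565 and 549 CPM at day 7, 501, 295, 489 and 499 CPM at day 14, and 442, 627 and 614 CPM at day 21. Each later day overlapped day 0. The log2 fold change was 0.30 at day 7 (SE 0.20, edgeR adjusted p 0.284), -0.09 at day 14 (SE 0.20, adjusted p 0.771) and 0.24 at day 21 (SE 0.21, adjusted p 0.422). The lowest values were 312 CPM in day 0 replicate 3 and 295 CPM in day 14 replicate 2. In these libraries long genes were lowest relative to the mean of their own day, with mean deviations of -0.14 and -0.22 on the log2 scale. With a trend on exon length removed from each library, the log2 fold changes of Il6st were 0.28, -0.06 and 0.17 at days 7, 14 and 21. Without day 14 replicate 2 the day 14 value was 0.05 (adjusted p 0.879).

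**Figure D3:**
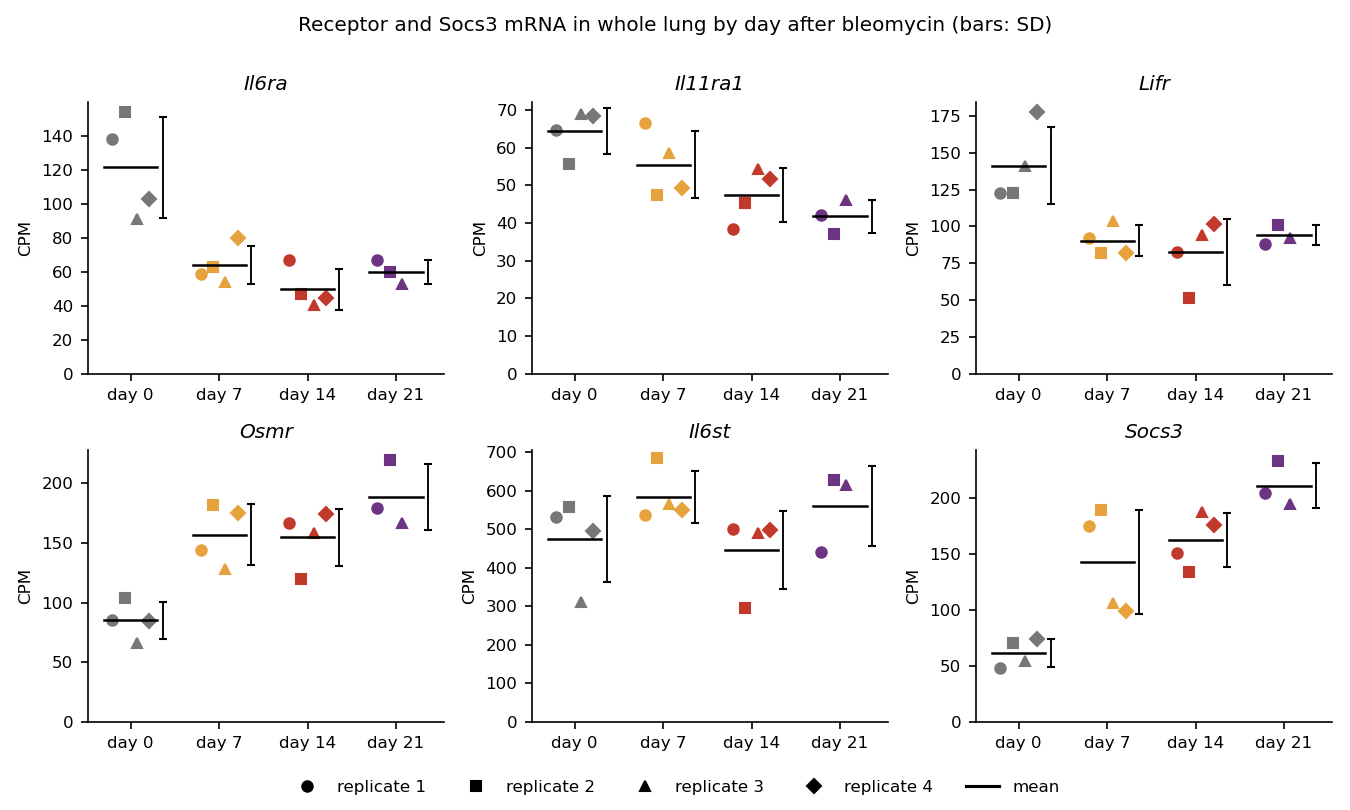
CPM of the 5 receptor genes and of Socs3 in each library (vertical axis, linear from 0, a different range in each panel) by day, with a line at the group mean and a bar for its SD. Il6ra and Lifr lie below day 0 at every later day, Osmr and Socs3 above it, and Il6st overlaps day 0 throughout.

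The make-up of the ligand-specific receptors changed with these shifts. Per kilobase of exon, Osmr held the smallest share of the 4 in all 4 day 0 libraries, at 14.4% ± 1.99 (SD, n = 4). It held 31.5% ± 4.87 at day 7 (n = 4), 34.6% ± 1.64 at day 14 (n = 4) and 38.3% ± 3.65 at day 21 (n = 3), and was the largest in 2, 3 and 3 of those libraries. The share of Il6ra went from 28.8% ± 6.17 to 17.9% ± 2.77, 15.8% ± 4.13 and 17.1% ± 1.89. Lifr held 27.0% ± 4.81 at day 0 and 20.4% ± 2.88 to 21.5% ± 0.94 later. Il11ra1, the least certain of the 4 because of its paralogs, went from 29.8% ± 4.01 to 30.2% ± 4.74, 29.1% ± 4.74 and 23.1% ± 3.58 over the same days.

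**Figure D4:**
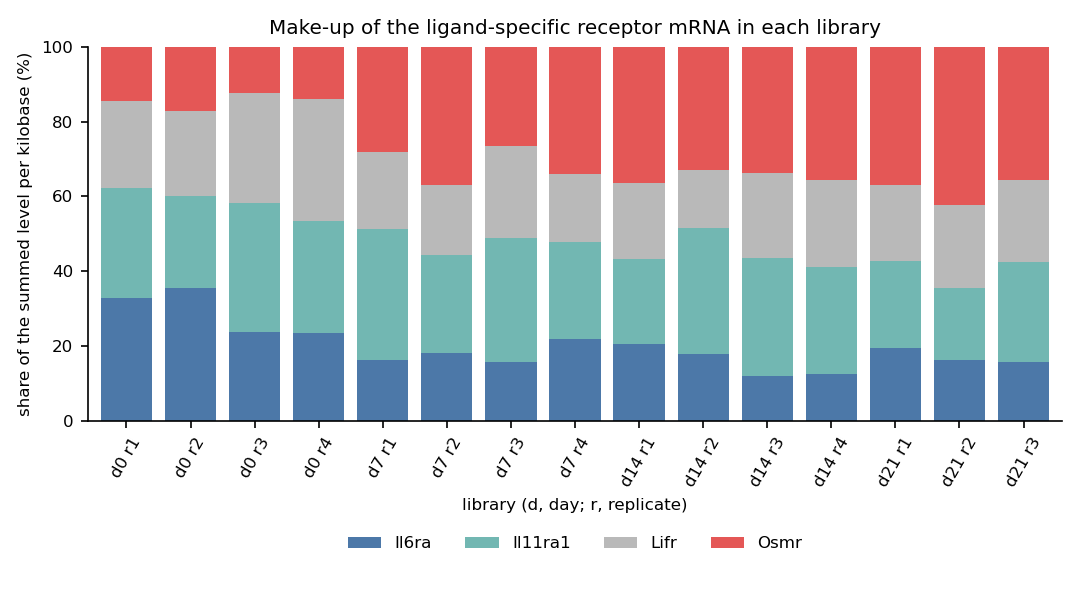
Share of each of the 4 ligand-specific receptor genes in their summed level per kilobase of exon (vertical axis, percent) in each of the 15 libraries (d, day; r, replicate). The Osmr share is 12.3% to 17.1% in the day 0 libraries and 26.7% to 42.4% in the later ones.

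Socs3 (ENSMUSG00000053113, chromosome 11, 117966079 to 117970047, minus strand) encodes the STAT3-induced inhibitor of gp130. Its level was 48.2, 70.4, 54.0 and 73.9 CPM at day 0, 175, 189, 106 and 99.2 CPM at day 7, 151, 134, 187 and 176 CPM at day 14, and 204, 233 and 194 CPM at day 21. All later libraries lay above day 0, and all 3 of day 21 lay above all of day 14. Socs3 rose 2.31-fold by day 7 (log2 fold change 1.21, SE 0.21, edgeR adjusted p 0.000933), 2.63-fold by day 14 (log2 1.39, SE 0.21, adjusted p 0.000146) and 3.42-fold by day 21 (log2 1.77, SE 0.22, adjusted p 4.25e-05). Its difference between days 21 and 14, 0.38 on the log2 scale, did not pass (SE 0.22, adjusted p 0.591).

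The order of the levels was compared per length, in CPM per kilobase of exon. At day 0 Il6st was highest, at 42.7 ± 10.0 (SD, n = 4), followed by Socs3 at 21.3 ± 4.32 and by Il11ra1, Il6ra and Lifr at 14.4 ± 1.35, 14.05 ± 3.41 and 13.1 ± 2.42, whose ranges overlapped. Osmr was at 7.03 ± 1.27, clear of its neighbours in the order, and Osm at 2.26 ± 1.79 overlapped Lif at 1.01 ± 0.25. Il11 at 0.489 ± 0.193 and Il6 at 0.21 ± 0.234 were lowest and overlapped. Day 0 replicate 4 raised the means of Il6 and Osm. It was at 0.551 for Il6, the others at 0.0249 to 0.157, and at 4.84 for Osm, the others at 0.745 to 1.98. At day 21 Socs3 was highest, at 72.8 ± 6.96 (n = 3), above Il6st at 50.5 ± 9.32 with no overlap, and Osmr and Lif followed at 15.6 ± 2.30 and 11.7 ± 2.49, which overlapped. The mean of Lif was now among those of the receptors, with Il11ra1 at 9.34 ± 0.99, Lifr at 8.72 ± 0.62 and Il6ra at 6.94 ± 0.80. The range of Lif overlapped those of Il11ra1, whose level is uncertain, and Lifr, and was clear of Il6ra. Osm and Lif had changed places, and Osm, Il11 and Il6 were now the 3 lowest, at 2.72 ± 1.15, 1.5 ± 0.36 and 1.02 ± 0.22.

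The steps between later days asked whether the family went on changing. Between days 7 and 14, 0 members passed the thresholds by edgeR and by DESeq2, where 6.00% of all genes did, and 1 member, Il6, had an unadjusted p under 0.05. Il6 was higher at day 14 by 1.30 on the log2 scale (SE 0.57, edgeR adjusted p 0.170), and Il6st was lower by 0.39 (SE 0.20, adjusted p 0.239). The Il6st difference was -0.23 without day 14 replicate 2 and -0.08 with a covariate for the mitochondrial share. Between days 14 and 21, 0 members passed by either tool, with 0 at an unadjusted p under 0.05. Of all genes 0% passed there by edgeR, with 1714 genes at an unadjusted p under 0.05, and DESeq2 called 106. Over all 4 days together, 8 of the 10 members differed by edgeR's F test at an adjusted p under 0.05, as did 39.9% of all genes, and Osm (adjusted p 0.786) and Il6st (adjusted p 0.289) did not.

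In the counts of groups that did not overlap, 5 of the 10 members were clear of day 0 at day 7, and 8 were so on each of days 14 and 21. Of all genes tested, 30.8%, 31.1% and 35.5% had groups that did not overlap with day 0.

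The other genes of the gp130 pathway were taken from a list of 54 symbols, of which 53 were in the table and 46 were tested. The list was chosen with earlier results of these data known, so its shares are not independent of the data. At day 7, 15 had changed, 13 higher and 2 lower. None of the lower calls at day 7 was left without day 0 replicate 4 (12 higher), or without day 0 replicate 3 or day 7 replicate 1, 2 or 4 (11 higher each). At day 14, 18 had changed, 14 higher and 4 lower, and at day 21, 15 had changed, 12 higher and 3 lower. That is 32.6%, 39.1% and 32.6% of those tested, against 16.1%, 23.1% and 22.5% of all genes. Their median log2 fold change was 0.21, 0.19 and 0.11. Leaving out day 0 replicate 4 gave 13 higher and 6 lower at day 14, and 12 higher and 5 lower at day 21. At day 21 there were also 5 lower without day 0 replicate 2 or 3 or day 21 replicate 2. There were 6 lower and 10 higher without day 21 replicate 3, and 2 lower without day 21 replicate 1. Fgg and Ccl2 passed the count filter through the later days, with 2 of 4 day 0 libraries at its level, so their place among the genes tested was not independent of those days.

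Among the other cytokine genes, Clcf1, which encodes cardiotrophin-like cytokine, was lower at day 7 (log2 -0.88, SE 0.30, edgeR adjusted p 0.0425), a call lost in 11 of 22 alternatives. The log2 fold change was -0.10 with the mitochondrial share as a covariate, -0.24 within the libraries under 2.5% and -0.58 without day 0 replicate 3. Without day 0 replicate 4 it was -0.85 (adjusted p 0.0941).

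Among the receptors, Cntfr, the binding receptor for ciliary neurotrophic factor, lies 2.90 kb from Il11ra1. It was at 5.80 to 8.71 CPM at day 0, 2.97 to 4.83 CPM at day 7, 1.34 to 4.96 CPM at day 14 and 3.82 to 7.61 CPM at day 21. Cntfr fell 1.97-fold by day 7 (log2 -0.98, edgeR adjusted p 0.0433) and 2.68-fold by day 14 (log2 -1.42, adjusted p 0.00510), while day 21 overlapped day 0. The day 7 call was lost in 8 of 22 alternatives, among them without day 0 replicate 4 (log2 -1.10, adjusted p 0.0528). Of the proteases that shed IL-6Rα, Adam10 rose 1.53-fold by day 14 and 1.63-fold by day 21 (edgeR adjusted p 0.00229 and 0.00146), while its 1.45-fold difference at day 7 was under the fold threshold. These calls were lost in 5 of 22 and 3 of 20 alternatives, among them leaving out day 0 replicate 3 (log2 0.49 and 0.58). Without day 0 replicate 4 the day 14 value was 0.57, under the fold threshold. Adam17 passed at day 7 alone, at a fold change of 1.5 (adjusted p 0.00709), and this call was lost in 17 of 22 alternatives, among them without day 0 replicate 4 (log2 0.54). At days 14 and 21 Adam17 was at 1.44-fold and 1.31-fold, and neither passed.

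Of the 9 kinases and signal transducers, 0 had changed at day 7 by edgeR and by DESeq2, where 16.1% of all genes had, with 5 at an unadjusted p under 0.05. Stat3 itself was at 1.35-fold (edgeR adjusted p 0.0255) and the kinase gene Jak2 at 1.25-fold (adjusted p 0.0136), both short of the fold threshold alone. At days 14 and 21 the only change was in Stat5b, a transcription factor of the STAT family, which was at 91.3 to 104 CPM at day 0 and 54.3 to 71.2 CPM at day 21. It fell 1.53-fold by day 14 (log2 -0.62, edgeR adjusted p 0.000750) and 1.54-fold by day 21 (log2 -0.62, adjusted p 0.00157). The day 14 call was lost without day 14 replicate 1 (log2 -0.57) and the day 21 call without day 21 replicate 1 (log2 -0.54). Of the 7 inhibitors other than Socs3, Socs1 was 2.71-fold higher at day 7 (log2 1.44, adjusted p 0.00354, but 1.09 and 0.0585 within the libraries under 2.5% mitochondrial counts) and 1.83-fold higher at day 14 (log2 0.87, adjusted p 0.0363), a day 14 call lost in 8 of 22 alternatives, among them without day 0 replicate 4 (log2 0.66, adjusted p 0.113), and Ptpn2 was 1.57-fold higher at day 7 (log2 0.65, adjusted p 0.000423). At day 21, 0 inhibitors of the list passed by edgeR and by DESeq2, where 22.5% of all genes did by edgeR, with 2 at an unadjusted p under 0.05 that kept an adjusted p under 0.05 but were short of the fold threshold.

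Genes known to respond to STAT3 made up most of the rises. Of the 22 tested, 10 were higher at day 7, 11 higher and 2 lower at day 14, and 10 higher and 2 lower at day 21. Of all genes 8.78%, 12.0% and 12.4% were higher on these days, and 7.36%, 11.2% and 10.1% lower. The medians of their log2 fold changes were 0.77, 0.84 and 0.66. Many of these genes also respond to other signals, so the list does not measure STAT3 activity alone. It too was chosen with earlier results of these data known, so its shares are not independent of the data.

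Saa3, an acute phase protein, was at 0.889 to 3.37 CPM in the day 0 libraries, 33.3 to 96.1 CPM at day 7 and 54.6 to 137 CPM at day 21, with a log2 fold change of 4.72 (SE 0.54), 4.48 (SE 0.53) and 5.67 (SE 0.56) at the 3 days. The day 7 value was 4.12 with a covariate for the mitochondrial share. Timp1, an inhibitor of matrix-degrading proteases, was at 4.57 to 7.44 CPM at day 0 and 68.8 to 196 CPM at day 7, with log2 fold changes of 4.26, 4.36 and 4.80, of which the day 14 value was 3.74 without day 14 replicate 1. Ccl2, a chemokine that draws monocytes, had log2 fold changes of 4.66, 4.33 and 4.90 (edgeR adjusted p at most 8.48e-05), and the last was 4.28 without day 21 replicate 1. None of their later libraries overlapped day 0.

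Smaller rises were seen in Fgg, a fibrinogen chain, at 2.97 and 2.25 on the log2 scale at days 7 and 14 (2.92 at day 14 within the libraries over 3.5% mitochondrial counts), and in Myc, a growth factor-responsive transcription factor, at 2.1 at day 21. Hp, which encodes the haemoglobin-binding acute phase protein haptoglobin, fell at day 21 (log2 -0.89, edgeR adjusted p 0.00321). The kinase gene Pim3 fell at day 14 (log2 -0.91, adjusted p 0.000418), and the repressor gene Bcl6 fell at days 14 and 21 (log2 -0.69 and -0.76, adjusted p 0.00234 and 0.00271). The day 14 Bcl6 call was lost within the libraries over 3.5% mitochondrial counts (log2 -0.57). Steap4, a metalloreductase, was at 51.7 to 69.4 CPM at day 7 and 20.7 to 28.8 CPM at day 14, 2.58-fold lower (log2 -1.37, adjusted p 0.0182), and was named after its values had been seen. That call was lost with the mitochondrial share of counts as a covariate (log2 -0.76, edgeR adjusted p 0.290) and without day 14 replicate 2 (log2 -1.30, adjusted p 0.0591).

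**Figure D5:**
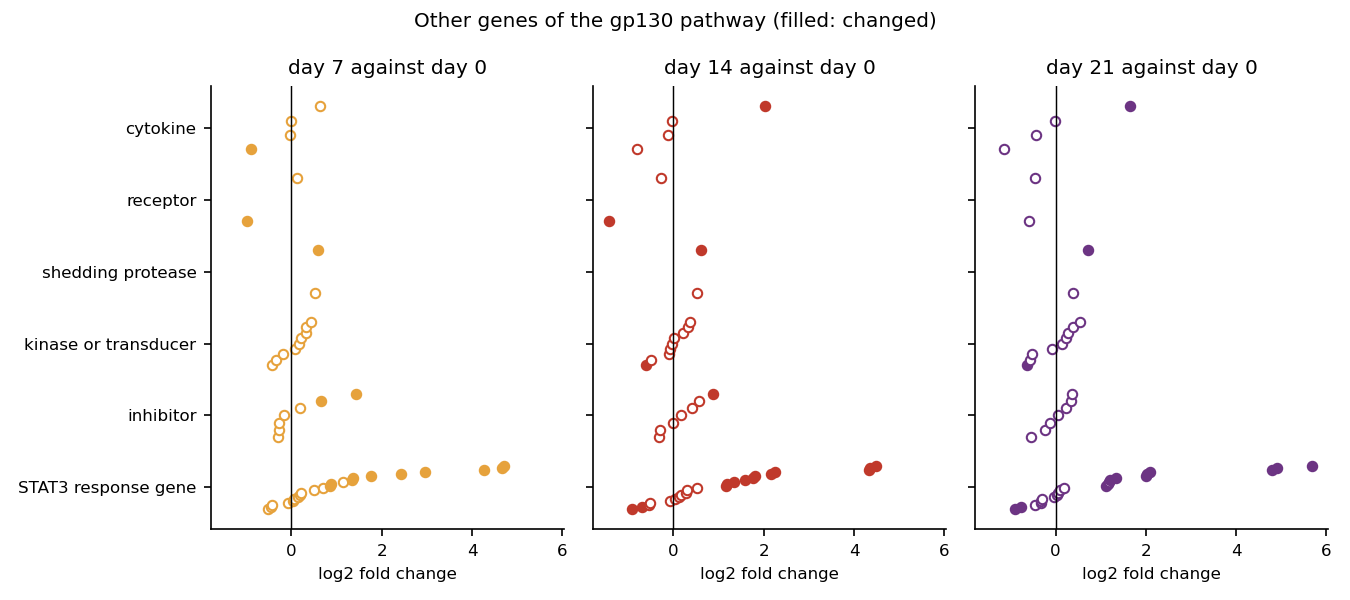
Log2 fold change of the 46 other genes of the gp130 pathway that were tested (horizontal axis, 1 point per gene) at each day against day 0, in rows by role, with filled points for changes past both thresholds. The largest rises are in the row of STAT3 response genes, and the row of kinases and transducers holds 0, 1 and 1 filled points.

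For each member that had changed at any day, the 2 other genes with the most similar pattern of log2 CPM over the 15 libraries were noted as a description. Lif was most like Ccl12 (Pearson r 0.978) and Igf1 (0.973), and Socs3 was most like Lif itself (0.951) and Sbno2 (0.940). Osmr was most like Steap2 (0.970) and Traf3 (0.953), Lifr like Elmo1 (0.947) and Sema6a (0.931), and Il6ra like Slc31a1 (0.944) and Itih5 (0.939). Il11 was most like Ch25h (0.931) and Mrgpre (0.926), Il6 like Ehbp1l1 (0.918) and Ampd2 (0.917), and Il11ra1 like Pgghg (0.944) and H2-Ob (0.937). These libraries fall into groups by day, so a gene that differs between days correlates with others that do. With the day means removed, Lif and Socs3 had an r of 0.820.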

How the data were processed

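The submitters' processing notes name HISAT2 2.1.0, HTSeq 0.6.0, DESeq2 1.40.2 and GRCm38. The authors trimmed and aligned the reads, removed those that aligned to several places, and deposited raw read counts for Ensembl genes, which are not normalized. The annotation release and strand setting were not given in the sources used here. Identifiers were matched to GENCODE M21 (33267 of 33340, the others holding 0.00889% of counts).

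Counts were tested with edgeR 4.0.16 (R 4.3.3): filterByExpr on day group (minimum count 10), TMM factors, glmQLFit and glmQLFTest, all 15 libraries in 1 fit, day group as the only term, which gave a common biological coefficient of variation of 22.8%. CPM used TMM library sizes, and log2 CPM a prior count of 2. No member was dropped by the filter, so the exact permutation test planned for such members was not needed. The script was tested on simulated counts. Groups came from the sample titles, which give 4, 4, 4 and 3 replicates, while the series description gives fewer.

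The members and gene lists were chosen with earlier results of these data known. Named genes were all members; at each day against day 0, up to 4 other pathway genes with the largest rise and up to 3 with the largest fall among those changed; and the 2 closest genes by correlation, with predicted genes left out. Adam10, Adam17, Socs1, Ptpn2, Stat3, Jak2, Steap4 and Stat5b at day 14 fell outside this rule and were named after their values were seen. The counts of the pathway list include a gene that is not reported here. Alternatives were DESeq2 1.42.0, limma 3.58.1 voom, total count or RLE scaling, no count filter, a minimum mean of 1 CPM, only the 2 groups compared, a replicate block, glmTreat, no fold change threshold, the mitochondrial share of counts as a covariate or as sets of libraries under 2.5% or over 3.5%, and leaving out each library. The set under 2.5% held 2 day 0 and 4 day 7 libraries, and the set over 3.5% held 2 day 0 and 3 day 14 libraries. Removing an exon length trend, and leaving out day 0 replicate 4 together with day 14 replicate 2, were chosen after seeing the data.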

Additional observations from a re-analysis of the deposited data

Results flagged for a closer look

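In 30 groups of 4 libraries over the 10 members, 2 had a library whose gap to its neighbour passed Dixon's limit for the group's range, and chance gives about 5% of groups. Day 0 replicate 4 had 1.62 CPM of Il11, and the other libraries of that day had 0.786 to 0.841 CPM. Day 14 replicate 2 had 295 CPM of Il6st, and the others had 489 to 501 CPM.

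In 72 groups over the other named genes and the marker lists, 6 were of this kind. Bcl6 was at 75.9 CPM in day 0 replicate 1 (the others 58.8 to 61.1 CPM) and at 51.5 CPM in day 7 replicate 3 (41.5 to 43.1 CPM). In day 7 replicate 4 the cardiac muscle list summed to 588 CPM and the adipose list to 127 CPM. The alveolar type 2 list summed to 15800 CPM in day 7 replicate 2 (23600 to 24300 CPM), and the fibroblast list to 13100 CPM in day 14 replicate 1 (3590 to 4970 CPM).

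Steap4 differed between days 14 and 7, with a log2 fold change of -1.37 in edgeR's test of that difference (adjusted p 0.0182). The call was lost with the mitochondrial share of counts as a covariate (-0.76, adjusted p 0.290) and without day 14 replicate 2 (-1.30, adjusted p 0.0591).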

How the results depend on the processing

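The number of members changed stayed within 1.5 times the values given, except under glmTreat, in which the null is a fold change of up to 1.5, with 2 at day 7 and 3 at day 21. Of the other pathway genes at day 7 glmTreat called 8, and the adjusted p alone called 23. With 1 library left out, 4 to 6 members changed at day 7, 7 at day 14 and 6 to 8 at day 21. Direction reversed only for Osm and Il6st, neither of which had passed at any day. Osm at day 7 reversed with a covariate for the mitochondrial share (0.070), within the libraries under 2.5% (0.74) and with day 0 replicate 4 and day 14 replicate 2 left out (0.40), and at day 14 within those over 3.5% (-0.65). With 1 library left out its log2 fold change ran from -0.59 to 0.40 at day 7, -0.22 to 0.77 at day 14 and -0.16 to 0.92 at day 21. Il6st at day 14 reversed within the libraries over 3.5% (0.069) and with day 0 replicate 4 and day 14 replicate 2 left out (0.072), and ran from -0.26 to 0.047 with 1 library left out. The cause was not tested. Lif, Socs3 and the day 14 Il6ra call kept their side of the thresholds in all alternatives.

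The labels do not say what a replicate number marks, and deviations of same-numbered libraries had a median correlation of 0.0406 over 21 pairs (-0.244 to 0.397). With the replicate block 5, 7 and 7 members changed, and Lifr at day 21 did not pass (-0.50, edgeR adjusted p 0.0559). The Il11 call at day 14 was lost within the libraries over 3.5% (1.48, adjusted p 0.135). The Il6 difference between days 14 and 7 ran from 0.0048 with the mitochondrial covariate to 1.87 without day 7 replicate 2. Depth limits Il6 most, with 1 to 24 reads per day 0 library.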

Other observations

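Between members, correlations of log2 CPM over the 15 libraries are given as a description, with no p, since the libraries share their days. With the day means removed, Osmr and Il6st had a Pearson r of 0.772, and Il6ra and Il11ra1 one of -0.755. These pairs were picked for the size of their r from all pairs of the 10 members. Osmr and Il6st have the longest exon models of the members, 12113 and 11099 bases. Both were lowest of their day in day 0 replicate 3 and day 14 replicate 2, the libraries in which long genes were low. The part of gene length in these values was not tested. Il6st lies 9.81 kb from Il31ra, which encodes a receptor related to gp130 and did not pass the count filter.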
